A study of Mus musculus with 3 samples.

Results

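The vascular endothelial growth factor (VEGF) family was measured as 9 genes, 4 ligands (Vegfa, Vegfb, Vegfc and Pgf), 3 receptor tyrosine kinases (Flt1, Kdr and Flt4) and 2 neuropilin co-receptors (Nrp1 and Nrp2), chosen by symbol from 32285 annotated genes. Single cells were profiled from retinas of C57BL/6JRj mice in 3 age groups, young (3 months), adult (12 months) and old (23 months), in work on ageing of the vascular endothelium. Each age was 1 library, made from 4 retinas of 2 mice that were pooled before endothelial cells were enriched with CD31 microbeads, and the labels name no other treatment or allele. With 1 library per age, no difference between ages has a replicate check, and age cannot be told apart from the pool of mice or the library.

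VEGF ligands are secreted dimers that bind receptor tyrosine kinases on endothelial cells. VEGF-A acts mainly through KDR (also VEGFR2), the chief signalling receptor for endothelial growth, survival and permeability, whereas FLT1 (VEGFR1) binds VEGF-A, VEGF-B and placental growth factor and, as a soluble form, also acts as a decoy. VEGF-C is the ligand of FLT4 (VEGFR3), known from lymphatic vessels and angiogenic sprouts, and neuropilins hold ligands near these receptors and also bind class 3 semaphorins. In the retina, Müller glia and neurons are known sources of VEGF-A, and the vessels that respond to it are endothelial tubes covered by pericytes.

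The ligand genes lie, in GRCm38 with GENCODE M21 annotation, at chr17:46016993-46032369 on the minus strand (Vegfa), chr19:6982473-6987651 on the minus strand (Vegfb), chr8:54077606-54187096 on the plus strand (Vegfc) and chr12:85166635-85177790 on the minus strand (Pgf). The receptor genes lie at chr5:147561604-147726011 on the minus strand (Flt1), chr5:75932827-75978458 on the minus strand (Kdr) and chr11:49609263-49652739 on the plus strand (Flt4). The neuropilin genes lie at chr8:128358604-128503363 (Nrp1) and chr1:62703285-62818695 (Nrp2), both on the plus strand. Among the genes counted in the files, Nrp2 overlaps the antisense gene Gm29083, and the other 8 members overlap none.

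Kdr and Flt1 are shown by sequence because their levels relative to each other differed between endothelial cells and Müller glia. The 250 bases before each RefSeq transcription start (GRCm38.p6) are printed 5′ to 3′ in the direction of transcription. Capitals mark the GC box GGGCGG (or its reverse complement CCGCCC) and the ETS core GGAAG (or CTTCC).
Kdr, chr5:75978456-75978705, minus strand: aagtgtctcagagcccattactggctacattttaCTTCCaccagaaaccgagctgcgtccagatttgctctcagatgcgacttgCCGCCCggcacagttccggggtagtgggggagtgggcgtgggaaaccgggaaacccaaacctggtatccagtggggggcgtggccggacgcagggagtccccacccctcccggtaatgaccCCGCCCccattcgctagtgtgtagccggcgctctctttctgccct
Flt1, chr5:147726012-147726261, minus strand: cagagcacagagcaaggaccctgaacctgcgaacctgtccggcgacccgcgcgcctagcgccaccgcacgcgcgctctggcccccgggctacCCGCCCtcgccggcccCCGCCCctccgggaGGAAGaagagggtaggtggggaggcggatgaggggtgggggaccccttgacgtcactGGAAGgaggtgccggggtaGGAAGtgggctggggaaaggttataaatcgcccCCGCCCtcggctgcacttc
The Kdr window held 2 GC boxes and 1 ETS core at 61.6% GC, and the Flt1 window held 3 GC boxes and 3 ETS cores at 70.4% GC, against a median of 52.4% GC over all promoters. Over 32851 promoter windows of the same length and on both strands, a GC box was present in 32.7% and an ETS core in 64.1%. Among the 9 members, all had at least 1 window with a GC box, and 5 (Flt1, Flt4, Kdr, Nrp1 and Vegfa) had an ETS core. The hypoxia core ACGTG (or CACGT), present in 16.6% of all windows, was found in 1 of the 11 windows of the members, at chr17:46025164-46025413 before a start site within the Vegfa gene, and not in the window before the gene's 5′ end. The palindromic cyclic AMP element TGACGTCA, present in 1.55% of windows, was found in 1 member, Flt1, where it stands in lower case in the sequence above. These are matches of letters, and binding was not measured.

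After cell limits and removal of called doublets, 1706 young, 1957 adult and 1697 old cells remained, with median depths of 6355.5, 5964 and 6296 unique molecular identifiers (UMIs, 1 per captured RNA molecule). Of the barcodes, 1 young, 4 adult and 3 old ones also occurred in another library. Clusters formed without the 9 members were named from fixed marker genes, and the 7 named single-type classes that reached 30 cells per library were compared: endothelial (444, 435 and 408 cells in young, adult and old), pericyte (170, 129 and 103), smooth muscle (38, 37 and 37), Müller glia (181, 214 and 209), rod (166, 322 and 235), cone (70, 103 and 71) and bipolar (201, 207 and 167). A further 312, 249 and 223 cells carried endothelial and pericyte markers together and were kept apart as a mixed class. A cluster of low depth (63, 71 and 86 cells) carried 7 of 8 endothelial markers but stayed unnamed and outside the 7 classes, with Flt1 at 4397, 4023 and 5043 CPM. Levels are UMIs of a gene scaled to 1000000 UMIs of the class (CPM). All intervals in brackets are exact 95% intervals and cover counting error only.

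Over the kept cells the family gave 85834 UMIs of Flt1, 12105 of Kdr, 4674 of Nrp1, 2152 of Nrp2, 1835 of Vegfa, 1765 of Vegfb, 1475 of Flt4, 1348 of Vegfc and 407 of Pgf. Of the 9 members, 3 (Vegfc, Flt1 and Flt4) were at least 4-fold higher in endothelial cells than in each of the other 6 classes in each library, against 2.38% of 13442 genes with at least 50 UMIs. With classes taken from each cell's own markers 0 members met this rule, and with stricter cell limits, thinning or mixed cells counted as endothelial 2 did, without Flt4. No member met the same rule in pericytes (0.431% of genes), smooth muscle (0.424%), Müller glia (2.54%), rods (0.417%), cones (0.417%) or bipolar cells (2.49%). In each library the highest of the 7 classes for Vegfa and Kdr was Müller glia and that for Pgf was smooth muscle, with intervals clear of the next class. Smooth muscle also ranked highest for Vegfb and endothelial cells for Nrp2, but in at least 1 library each of these overlapped the class ranked next.

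**Figure D1:**
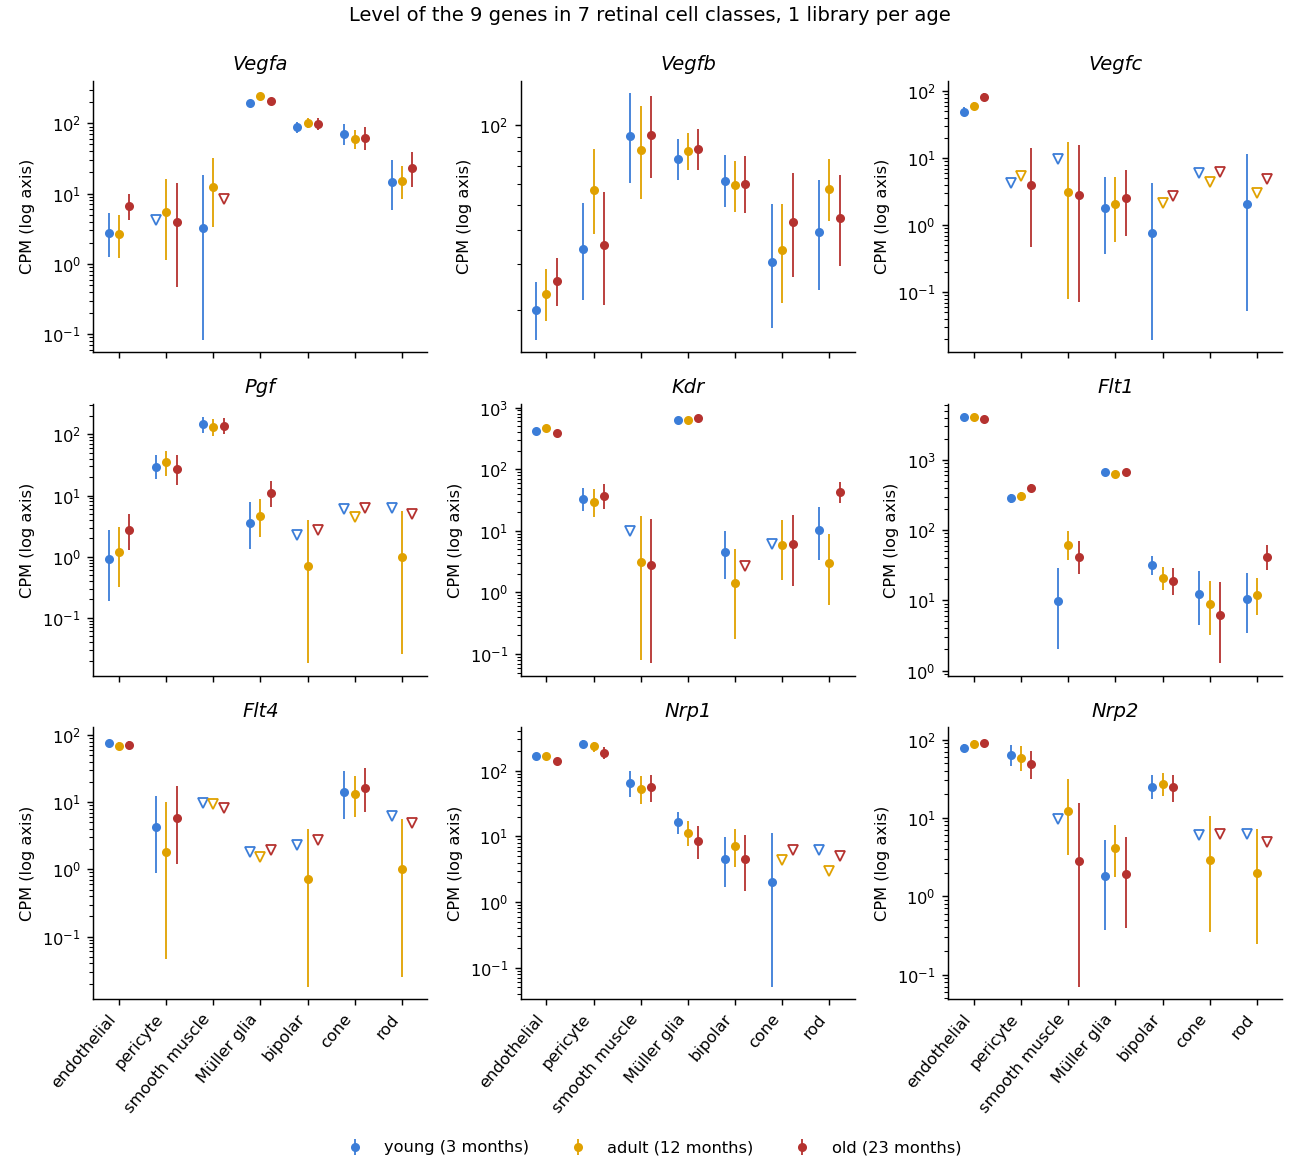
Level of each of the 9 genes (CPM, log axis) in 7 cell classes, with 1 point per library in blue (3 months), yellow (12 months) and red (23 months), bars giving exact 95% counting intervals and open triangles marking the level of 3 counts where no UMI was found. Vegfc, Flt1 and Flt4 stand highest in endothelial cells, Kdr and Vegfa in Müller glia and Pgf in smooth muscle in all 3 libraries.

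Among the ligands, Vegfa was read mainly outside the vessel wall. In Müller glia, the radial glia that span the retina, Vegfa stood at 191 CPM in the young, 243 CPM in the adult and 205 CPM in the old library (317, 473 and 318 UMIs). In bipolar cells, the interneurons between photoreceptors and ganglion cells, it stood at 87.6, 100 and 99.1 CPM, and in cones at 71.2, 60.0 and 61.4 CPM. Rods held 14.6, 15.1 and 23.1 CPM from 7, 15 and 14 UMIs. Endothelial cells held only 2.77, 2.65 and 6.56 CPM from 9, 9 and 24 UMIs. The small amacrine class of 18, 17 and 15 cells gave 205, 198 and 141 CPM from 20 to 21 UMIs per library, and without the young cell that gave 10 of them the young level was 113 CPM. The order from Müller glia through bipolar cells and cones to rods was the same in each library, and the levels of bipolar cells and cones overlapped in their intervals in the young and old libraries.

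Müller glia formed 2 clusters that differed in several members. The larger cluster (148, 180 and 161 cells) held Vegfa at 170, 192 and 146 CPM, and the smaller one (33, 34 and 48 cells) held 388, 793 and 658 CPM. The smaller cluster was above the larger in every library, without overlap of the intervals. Over all libraries the smaller cluster was also higher in Kdr (944 against 614 CPM) and Flt1 (1045 against 608 CPM) and lower in Vegfb (23.8 against 84.4 CPM, from 12 and 392 UMIs). Its median depth was 3588 UMIs against 9950, its mitochondrial share 5.73% against 8.28%, and the nuclear RNA Malat1 made up 160812 CPM against 72828 CPM. These measures of RNA quality moved with the levels of all 4 genes, and their part in them was not tested.

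**Figure D2:**
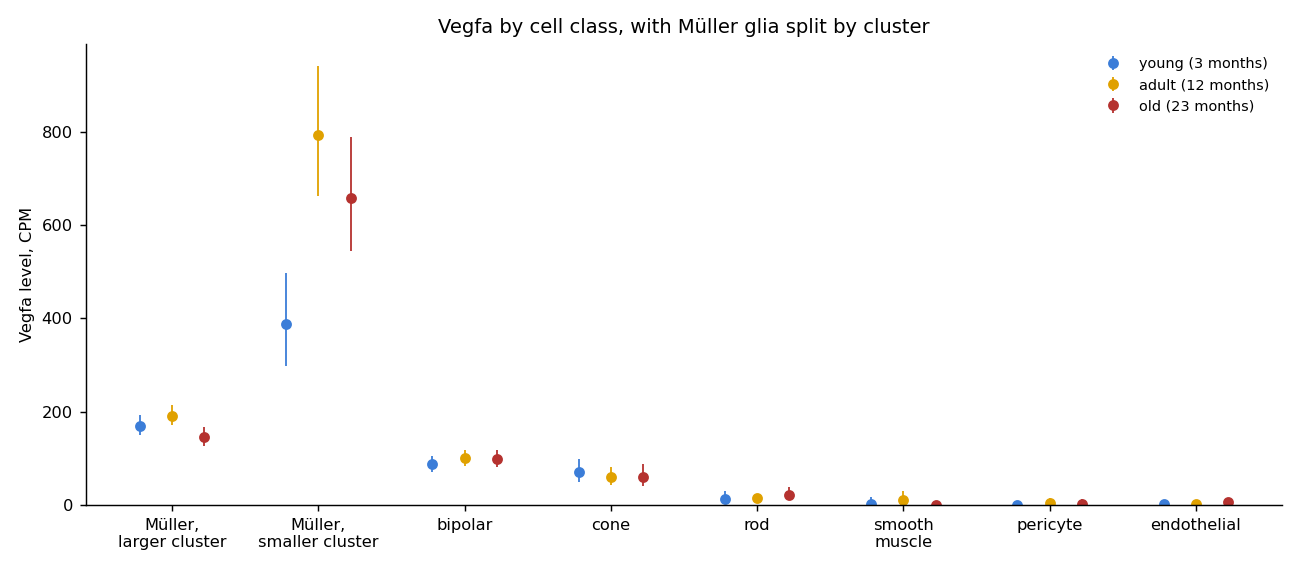
Vegfa level (CPM, linear axis from 0) in the larger and the smaller Müller cluster and in 6 other classes, 1 point per library coloured by age, with exact 95% counting intervals. The smaller Müller cluster lies at 388 to 793 CPM, above the larger at 146 to 192 CPM, and pericytes, smooth muscle and endothelial cells lie near 0.

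Vegfb, whose receptor tyrosine kinase is FLT1, was read in all 7 classes. Smooth muscle held 91.0, 80.6 and 91.9 CPM, Müller glia 74.3, 79.8 and 81.3 CPM and bipolar cells 61.7, 59.1 and 60.0 CPM in the young, adult and old libraries. Rods held 39.6, 57.2 and 44.5 CPM, pericytes 34.1, 56.9 and 35.3 CPM, and cones 30.5, 33.6 and 43.0 CPM. Endothelial cells had 19.97, 22.9 and 25.7 CPM, the lowest of the 7 classes in each library.

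Pgf, which encodes placental growth factor, another ligand of FLT1, was read mainly in mural cells. Smooth muscle, the contractile coat of arterioles, held 146, 130 and 139 CPM (45, 42 and 50 UMIs). Pericytes, the mural cells of capillaries, held 29.8, 34.9 and 27.5 CPM. Müller glia gave 6, 9 and 17 UMIs, and endothelial cells 3, 4 and 10. Cones gave 0 UMIs over the 3 libraries, which allows up to 1.80 CPM (the level of 3 counts, used for each count of 0), and rods and bipolar cells gave 1 UMI each.

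Vegfc was an endothelial ligand in these libraries, at 49.5, 60.3 and 83.1 CPM (161, 205 and 304 UMIs). Over the 3 libraries Müller glia gave 11 UMIs, pericytes and smooth muscle 2 each, rods and bipolar cells 1 each and cones none.

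Among the receptors, Flt1 was the most strongly read member. Endothelial cells held 4072, 4077 and 3792 CPM in the young, adult and old libraries (13253, 13862 and 13869 UMIs). Müller glia were next in each library at 663, 627 and 668 CPM, followed by pericytes at 283, 305 and 396 CPM.

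Kdr, in contrast, was higher in Müller glia than in endothelial cells. Müller glia held 636, 634 and 673 CPM (1053, 1233 and 1043 UMIs), and endothelial cells 417, 470 and 392 CPM (1357, 1599 and 1435 UMIs). The intervals of both classes were apart in every library. Pericytes held 32.7, 29.4 and 37.3 CPM.

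Endothelial RNA in Müller droplets was measured beside these levels. The 8 endothelial markers, summed, stood in Müller glia at 0.225%, 0.280% and 0.332% of their endothelial level in the young, adult and old libraries, and Tie1 was at 0 in the young one. On the same scale Flt1 stood at 16.3%, 15.4% and 17.6%, and Kdr at 153%, 135% and 171%. The ratio of both receptors differed too. Müller glia gave 0.960 Kdr UMIs per Flt1 UMI in the young (0.881 to 1.05), 1.01 in the adult (0.934 to 1.10) and 1.01 in the old library (0.923 to 1.10). Endothelial cells gave 0.102, 0.115 and 0.103, the mixed endothelial-pericyte class 0.104 over all libraries and pericytes 0.102. The capture of a gene by 3′ tags can differ between genes, so the ratio is read between classes and not as a ratio of transcripts.

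**Figure D3:**
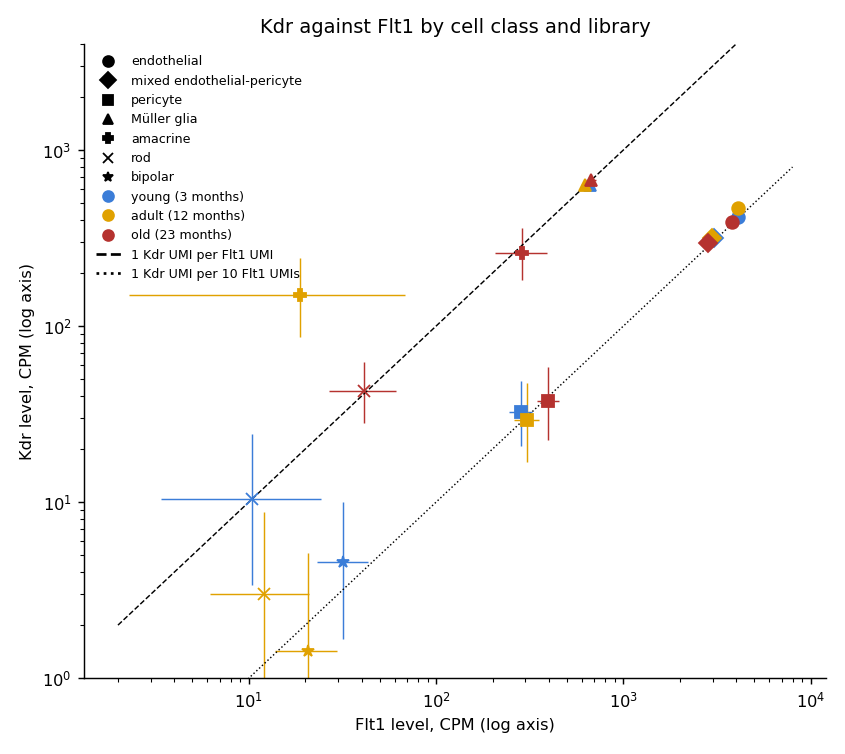
Kdr level against Flt1 level (CPM, both axes log) for each class (symbol) and library (colour), with exact 95% counting intervals and lines at 1 Kdr UMI per Flt1 UMI (dashed) and 1 per 10 (dotted). Endothelial, mixed and pericyte points lie along the dotted line (0.102 to 0.107 over all libraries) and Müller points on the dashed line (0.993).

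The receptors were also counted as shares of cells. Each cell was thinned to 2000 UMIs, because the median depth was 9166, 9467.5 and 6668 UMIs in Müller glia and 2287, 2425.5 and 2161 in rods. Cells below 2000 UMIs were left out, which were 10, 16 and 42 Müller glia and 61, 105 and 93 rods. The thinned shares are therefore shares of the remaining cells. A Kdr UMI was then found in 71.9%, 64.1% and 66.5% of Müller glia and in 1.90%, 0.922% and 5.63% of rods. A Flt1 UMI was found in 67.3%, 66.2% and 67.1% of Müller glia and in 1.90%, 2.30% and 7.75% of rods. Without thinning the Müller shares were 87.8%, 86.0% and 79.9% for Kdr and 90.1%, 89.3% and 85.2% for Flt1, and the rod shares were 3.01%, 0.932% and 5.11% for Kdr and 3.01%, 2.48% and 7.23% for Flt1. Rods stand here for a class assumed, without a test, to lack both receptors. The Müller shares were above the rod shares in each library, and the part of background RNA in them was not tested. Both receptors were found in the same thinned Müller cell in 50.3%, 42.4% and 47.9% of cells, beside 48.4%, 42.4% and 44.6% from the product of the single shares. In old rods Kdr gave 26 UMIs in 12 cells and Flt1 25 UMIs in 17 cells, and the summed Müller markers stood at 419, 250 and 649 CPM in young, adult and old rods. Their part in the old rod shares was not tested.

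Flt4 was an endothelial receptor at 75.3, 69.1 and 71.6 CPM (245, 235 and 262 UMIs). Müller glia gave 0 UMIs over the 3 libraries, which allows up to 0.583 CPM, and smooth muscle 0, which allows up to 3.03 CPM. Cones, the colour photoreceptors, gave a low and even count of 7, 9 and 8 UMIs in 6, 7 and 8 cells (14.2, 13.2 and 16.4 CPM), whereas rods and bipolar cells gave 1 UMI each in all libraries together.

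Of the neuropilins, Nrp1 stood highest in pericytes at 257, 235 and 186 CPM, followed by endothelial cells at 170, 171 and 143 CPM. The intervals of both classes were apart in the young and adult libraries and overlapped in the old one. In pericytes Nrp1 stood at 152%, 138% and 130% of its endothelial level, where the summed endothelial markers stood at 5.97%, 6.91% and 8.42% and Flt1 at 6.94%, 7.48% and 10.5%. In each library the Flt1 share in pericytes was above that of the endothelial markers, with none of the 8 at 0, and the Nrp1 share was higher still. The part of endothelial RNA in the pericyte levels of Flt1 and Nrp1 was not tested. Smooth muscle held 65.0, 52.7 and 55.7 CPM of Nrp1, Müller glia 16.3, 11.3 and 8.38 CPM, and rods 0 UMIs, which allows up to 1.44 CPM.

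Nrp2 stood at 77.7, 86.8 and 89.1 CPM in endothelial cells and at 63.9, 58.8 and 49.1 CPM in pericytes. Among neurons it was concentrated in 1 bipolar cluster, led by the glutamate receptor gene Grik1, with 22, 30 and 21 UMIs in 35, 41 and 31 cells (125, 138 and 137 CPM). A second bipolar cluster of 38, 34 and 22 cells held 48.9, 41.0 and 51.6 CPM. The largest bipolar cluster gave 0 Nrp2 UMIs in 240 cells.

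Endothelial cells, re-clustered without the members, gave an arterial-like group of 61, 74 and 94 cells and a venous-like group of 126, 108 and 80 cells. The first carried 8 of 9 arterial markers (Bmx, Sema3g, Gkn3, Gja4, Efnb2, Hey1, Alpl and Stmn2) and the second 5 of 8 venous markers (Nr2f2, Slc38a5, Il1r1, Lrg1 and Icam1). The other 4 groups were not named. They were a group of 181, 119 and 153 cells led by Adm, one with pericyte genes, one of low depth and one with platelet genes.

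Vegfc and Nrp2 differed in opposite directions between the arterial-like and venous-like groups. Venous-like cells also held summed capillary markers at 10072, 11273 and 8663 CPM, beside venous markers at 749, 771 and 1207 CPM. Vegfc was at 206, 235 and 247 CPM in arterial-like cells and 23.7, 17.6 and 18.1 CPM in venous-like cells, a ratio of 8.68 (5.74 to 13.5), 13.4 (8.67 to 21.6) and 13.6 (8.52 to 23.0). Nrp2 was at 124, 138 and 201 CPM in venous-like and 21.1, 20.2 and 14.2 CPM in arterial-like cells. Vegfc was the 1 of 7 members at least 4-fold higher in arterial-like cells in each library, against 0.936% of 8650 genes. Nrp2 was the 1 of 7 at least 4-fold higher in venous-like cells, against 0.243%. Flt4 did not separate the groups, at 94.97, 77.9 and 78.6 CPM in arterial-like and 71.1, 76.8 and 76.2 CPM in venous-like cells. Flt1 was 1.29 (1.23 to 1.35), 1.11 (1.07 to 1.16) and 1.10 (1.06 to 1.15) times as high in arterial-like as in venous-like cells.

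**Figure D4:**
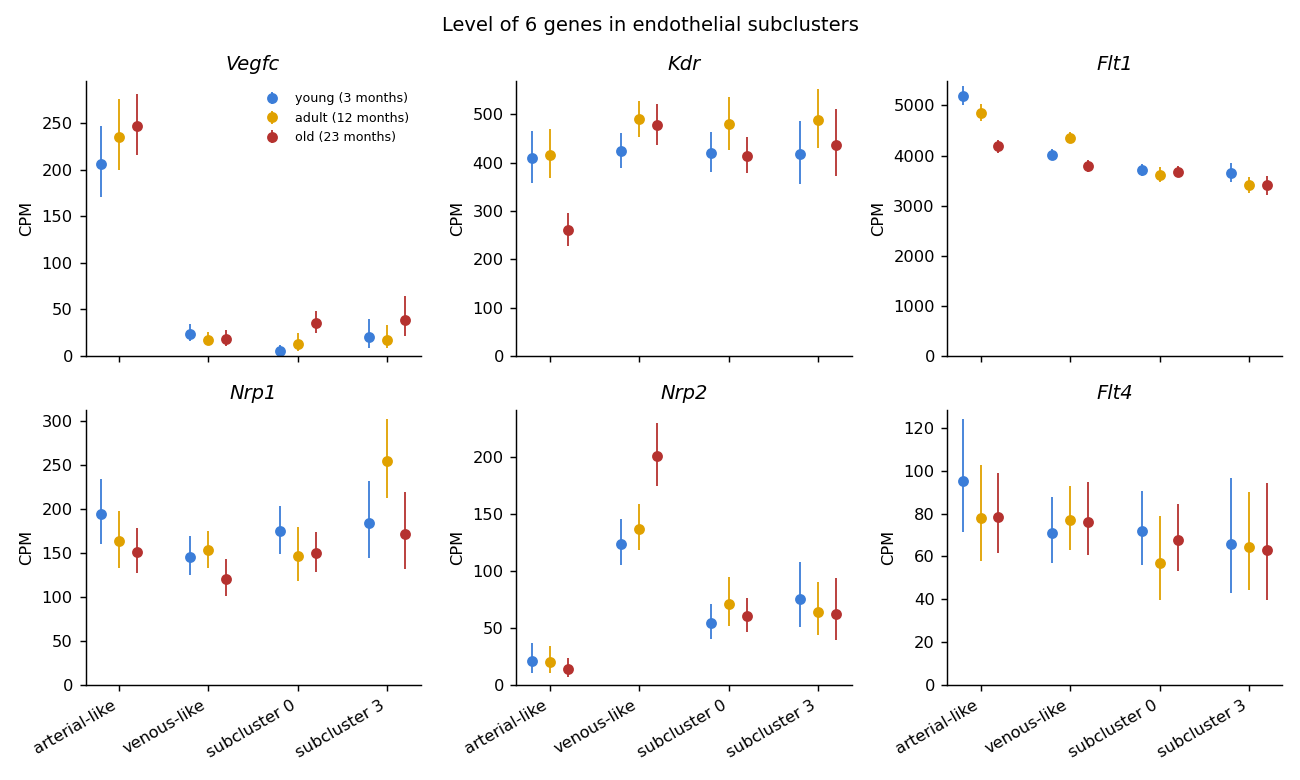
Level (CPM, linear axes from 0) of Vegfc, Kdr, Flt1, Nrp1, Nrp2 and Flt4 in 4 groups of re-clustered endothelial cells, 1 point per library coloured by age, with exact 95% counting intervals. Vegfc peaks in arterial-like cells (206 to 247 CPM), Nrp2 in venous-like cells (124 to 201 CPM), and Kdr is lowest in old arterial-like cells (260 CPM).

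Between ages, the endothelial levels of 7 members could be set side by side (at least 50 UMIs over the young and old libraries). Vegfc was the 1 of 7 past 1.5-fold in old against young, against 8% of 8991 genes in either direction and 4.87% higher. Its ratio was 1.68 (1.38 to 2.05) in old over young and 1.22 (0.987 to 1.51) in adult over young. With mixed cells counted as endothelial the old over young ratio was 1.49 and no longer past 1.5-fold, and it was 2.31 with cells weighted equally and 2.63 without cells holding UMIs of other classes' markers. Such cells, here and below, are those with UMIs of 2 or more markers of another class. Leaving them out kept 511 of 1287 endothelial cells. Adult against young, 0 of 7 members were past 1.5-fold, against 4.35% of 8887 genes. The median log2 ratio over all genes was 0.03 in old over young. Kdr stood at a ratio of 0.941 (0.873 to 1.01), Flt1 at 0.931 (0.909 to 0.954), Flt4 at 0.952 (0.796 to 1.14), Nrp1 at 0.845 (0.748 to 0.954), Nrp2 at 1.15 (0.970 to 1.36) and Vegfb at 1.29 (0.928 to 1.79). Without cells holding other classes' markers Vegfb was 2.02, past 1.5-fold, and Kdr 1.03, and without arterial-like cells, computed after the data were seen, Kdr was 1.04. In the mixed endothelial-pericyte class the Vegfc ratio was 1.17 (0.944 to 1.46) in old over young and 1.52 (1.25 to 1.86) in adult over young. By cluster, the smaller of its 2 clusters (68, 61 and 37 cells) held most of this Vegfc, at 162, 197 and 208 CPM from 171, 199 and 133 UMIs, a ratio of 1.29 (1.02 to 1.63) in old over young. The larger cluster (244, 188 and 186 cells) gave 11, 39 and 30 UMIs, 3.36 (1.63 to 7.42) in old over young, so both clusters lay above the value of the whole class. Over the class, Vegfc was the 1 of 8 members past 1.5-fold in adult against young there (3.92% of 9907 genes), and in old against young the 1 of 8 was Pgf at 0.623 (0.386 to 0.985), from 61 and 29 UMIs (6.59% of 9813 genes). Most of this Pgf lay in the smaller cluster too, among whose leading genes are the smooth muscle genes Acta2 and Myh11, with a Pgf ratio there of 0.793 (0.454 to 1.34).

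The share of arterial-like cells in the endothelial class moved with the Vegfc level, at 13.7%, 17.0% and 23.0% in young, adult and old. The CD31 enrichment can set such a share, and its part in the Vegfc level was not tested. Without them the endothelial ratio of Vegfc in old over young was 1.74, a value computed after the data were seen. Within arterial-like cells it was 1.20 (0.955 to 1.51), which became 2.19 without cells holding UMIs of other classes' markers and 1.56 with cells weighted equally, and within venous-like cells 0.764 (0.405 to 1.41). In the group led by Adm, Vegfc gave 5, 8 and 40 UMIs in 5, 6 and 21 cells (5.12, 12.7 and 35.1 CPM), a ratio of 6.85 (2.71 to 22.3) from fewer UMIs than the 50 required for a count. In this group the summed arterial markers stood at 762, 788 and 995.3 CPM, the rod markers at 74.7, 193 and 257 CPM, the capillary markers at 12869, 12613 and 11084 CPM and the pericyte markers at 1888, 1523 and 1057 CPM. The first 2 sums were highest and the other 2 lowest in the old library. Venous markers (197, 307 and 310 CPM), choriocapillary markers (18.4, 14.2 and 37.7 CPM) and Müller markers (731, 818 and 960 CPM) were also highest there. So were endothelial markers (11914, 12262 and 13004 CPM) and median depth (4848, 5030 and 6621 UMIs), while smooth muscle markers were lowest (19.4, 26.9 and 8.77 CPM). The part of all these in the Vegfc ratio was not tested.

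Within arterial-like cells Kdr was at 410, 416 and 260 CPM (233, 267 and 238 UMIs), a ratio of 0.634 (0.527 to 0.763) in old over young. It was the 1 of 5 members tested there past 1.5-fold, against 12.4% of 4554 genes in either direction and 5.6% lower. The ratio was no longer past 1.5-fold when cells were thinned (0.734), when cells with other classes' markers were left out (0.734) or without the cell with most Kdr UMIs in each library (0.710, computed after the data were seen). In the arterial-marker cluster of the whole-retina clustering (45, 60 and 79 cells) Kdr stood at 389, 257 and 263 CPM, a ratio of 0.675 (0.549 to 0.831), so there the adult and old levels were both below the young one. In venous-like cells Kdr stood at 424, 490 and 477 CPM, a ratio of 1.13 (0.993 to 1.27). The 7 capillary markers, summed, stood in arterial-like cells at 7582, 7688 and 5577 CPM, the 5 choriocapillary markers at 359, 302 and 199 CPM, and the 9 pericyte markers at 1034, 1031 and 516 CPM. All of these sums were lowest in the old library, as Kdr was. The 8 rod markers, at 51.0, 77.9 and 104 CPM, and the 6 Müller markers, at 1122, 1409 and 1523 CPM, were highest there. Their part in the Kdr ratio was not tested. Arterial-like Flt1 was at 5190, 4851 and 4186 CPM, a ratio of 0.807 (0.769 to 0.846), which became 1.18 when cells with UMIs of markers of another class were left out. Arterial-like Nrp1 stood at 0.777 (0.601 to 1.01), which became 1.70 with those cells left out and 1.08 with cells weighted equally. Within venous-like cells Nrp2 had a ratio of 1.62 (1.31 to 2.01), the 1 of 6 members past 1.5-fold, against 9.64% of 5882 genes and 5.47% higher. Thinned, it was 1.34 and no longer past 1.5-fold. The summed venous markers stood in venous-like cells at 749, 771 and 1207 CPM and the Müller markers at 497, 654 and 733 CPM. Both sums were highest in the old library, as were the endothelial markers. Capillary markers, at 10072, 11273 and 8663 CPM, and pericyte markers, at 1196, 1491 and 741 CPM, were lowest there, as were choriocapillary, smooth muscle and rod markers. The part of these sums in the Nrp2 ratio was not tested.

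In Müller glia, 0 of 4 members tested were past 1.5-fold in old against young (8.54% of 7363 genes) or in adult against young (7.7% of 7758). The old over young ratio was 1.06 (0.970 to 1.15) for Kdr, 1.01 (0.925 to 1.10) for Flt1, 1.09 (0.846 to 1.41) for Vegfb and 1.07 (0.914 to 1.26) for Vegfa. Vegfa in adult over young was 1.27 (1.10 to 1.47). By cluster, Vegfa in old over young was 0.856 (0.707 to 1.03) in the larger and 1.70 (1.24 to 2.34) in the smaller cluster, so both lay on opposite sides of 1. In adult over young it was 1.13 (0.957 to 1.33) in the larger and 2.04 (1.498 to 2.81) in the smaller cluster. The median depth of the smaller cluster was 4313, 4481.5 and 2665 UMIs in young, adult and old, and its part in these ratios was not tested. With each cell thinned to 2000 UMIs the Vegfa ratio in old over young was 1.57 over both clusters. Thinning left out 10 young and 42 old Müller glia below that depth. With cells holding UMIs of other classes' markers left out the ratio was 1.95, from 280 of 604 Müller glia over all libraries.

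In pericytes, 0 of 3 members tested were past 1.5-fold in old against young, against 12.2% of 3931 genes. Nrp1 stood at 0.725 (0.560 to 0.935) and Flt1 at 1.40 (1.15 to 1.71), beside 672, 801 and 1048 CPM of summed endothelial markers in young, adult and old pericytes. Their part in the Flt1 ratio, which was 1.57 with stricter cell limits and 1.60 without cells holding other classes' markers, was not tested. In adult against young 1 of 4 members was past 1.5-fold, Vegfb at 1.67 (0.949 to 2.97), against 8.81% of 3996 genes. In smooth muscle, 0 of 2 members were past it (14% of 1975 genes), with Pgf at 0.952 (0.623 to 1.46), or 0.599 thinned, and Vegfb at 1.01 (0.592 to 1.73), or 1.54 thinned. In bipolar cells 1 of 4 was past it, against 8.32% of 6379 genes. This was Flt1, with 42, 29 and 21 UMIs, a ratio of 0.597 (0.336 to 1.03) whose interval includes 1, and up to 18, 13 and 10 of those UMIs came from 1 cell of each library. The bipolar Flt1 ratio was 0.129 with stricter cell limits, 0.146 with free RNA subtracted, 0.913 thinned, 0.736 with cells weighted equally and 1.85 with classes from each cell's own markers, and in the largest bipolar cluster it was 3.73 (1.15 to 15.7) from 4 and 13 UMIs. In 2 other bipolar clusters Flt1 went from 18 young and 17 adult UMIs to 0 old ones (38, 34 and 22 cells), and from 18 young to 0 adult and 1 old UMI (20, 24 and 26 cells). In adult against young 1 of 4 was past 1.5-fold as well, again Flt1 at 0.646 (0.388 to 1.06), against 6.14% of 6825 genes. Bipolar Nrp2 stood at 0.977 in old over young, and went past 1.5-fold at 0.642 with stricter cell limits and 0.459 without cells holding other classes' markers. Cone Vegfa stood at 0.863 (0.512 to 1.45).

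**Figure D5:**
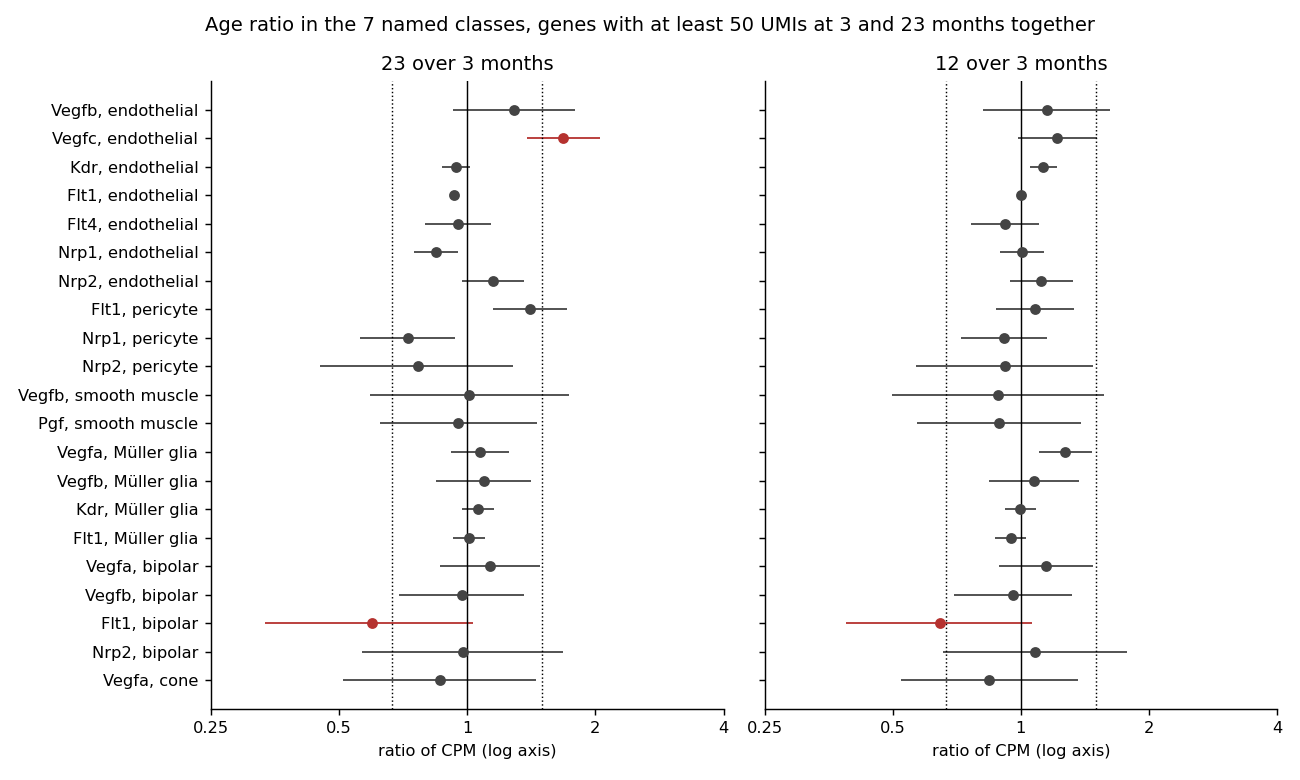
Ratio of CPM (log axis) in 23 over 3 months (left) and 12 over 3 months (right) for each gene with at least 50 UMIs over the 3 and 23 month libraries in the 7 named classes, with exact 95% counting intervals and dotted lines at 1.5-fold. Red points are past 1.5-fold, which are endothelial Vegfc (1.68) and bipolar Flt1 (0.597) on the left and bipolar Flt1 (0.646) on the right.

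The other genes of the pathway were read in the same way from lists. Of 30 genes of VEGFR2 signalling, 28 were tested in endothelial cells, of which 1 was past 1.5-fold higher and 3 lower in old against young (4.87% and 3.13% of all genes), with a median log2 ratio of -0.03 beside 0.03 over all genes. The phosphatase gene Ptprj was at 1.54 (1.20 to 1.99), and the adaptor genes Shb at 0.561, Dab2 at 0.629 and Gab1 at 0.660. In Müller glia 24 of the list were tested, with 1 higher and 2 lower (5.04% and 3.5% of all genes), of which 1 lower gene had an interval that leaves out 1. In pericytes 18 were tested, with 0 in either direction (12.2% of all genes). Of 18 VEGF-induced genes, 11 were tested in endothelial cells, with 2 higher and 1 lower (4.87% and 3.13% of all genes) and a median log2 ratio of 0.15 beside 0.03 over all genes. The leukocyte adhesion gene Vcam1 stood at 2.63 (2.26 to 3.07), the protease gene Adamts1 at 1.56 and the transcription factor gene Egr3 at 0.506. The list holds the members Pgf and Flt1.

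Hypoxia induces Vegfa, and 11 of 12 hypoxia target genes were tested in endothelial cells. In old against young, 5 were past 1.5-fold higher and 0 lower (4.87% and 3.13% of all genes), with a median log2 ratio of 0.43 beside 0.03 over all genes, and in adult against young 2 were higher (2.95% of all genes), with a median of 0.16 beside 0.04. The largest ratios were those of Adm (2.45), a vasodilator peptide gene, Ankrd37 (2.005), the mitophagy gene Bnip3 (1.67) and the lactate dehydrogenase gene Ldha (1.62). Of the hypoxia factors and their regulators, 0 of 7 were past 1.5-fold in endothelial cells (8% of all genes). In Müller glia 9 hypoxia targets were tested, of which 1 was past 1.5-fold higher with an interval that includes 1 (5.04% of all genes), and the median log2 ratio was 0.09 beside 0.03 over all genes. There 1 of 7 regulators was lower (3.5% of all genes), Epas1, which encodes a hypoxia-inducible factor, at 0.604 (0.513 to 0.710). Of 13 neuropilin partners, 7 were tested in endothelial cells, and 1, with an interval that includes 1, was past 1.5-fold higher (4.87% of all genes).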

How the data were processed

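The authors deposited unnormalised UMI counts per gene and barcode for 3 libraries (10x Genomics 3′ chemistry version 3.1), and the submitters' processing notes name Cell Ranger 6.1.2 and mm10. The 3 files held 2491, 3243 and 2751 barcodes and 16577026, 19977238 and 17021820 UMIs for young, adult and old. The study's limits (500 to 6000 genes and 1 to 20% mitochondrial UMIs) left 1713, 1974 and 1713 cells, and Scrublet (scanpy 1.11.5, Python 3.11.15) marked 7, 17 and 16 of these as doublets (0.409%, 0.861% and 0.934%), which were left out. The study used another doublet caller. The young share is low enough that the caller may not have worked there, and cells with markers of more than 1 class remained as mixed classes.

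Cells were integrated by canonical correlation and clustered in Seurat 5.3.0 (R 4.3.3), with 2000 features without the members, 30 components and a resolution of 0.5. A cluster was named when at least 3 fixed markers were detected in 20% of its cells at no less than 25% of their highest cluster level. One whose median depth in any library was under 33.3% of that library's, with none of those markers among its 10 leading genes, stayed unnamed. A difference from the study's classes may come from these rebuilt names. Endothelial groups were named by at least 3 subtype markers 2-fold over the rest, a rule set after the groups were seen. Counts were summed per library and class and divided by the class total. Levels have exact Poisson, ratios exact conditional and shares Clopper-Pearson intervals at 95%, and a count of 0 is given the level of 3 counts. Genes with at least 50 UMIs over both libraries were compared with no test, and 1.5-fold in either direction was counted. Ratios and their intervals were checked on simulated Poisson counts, the model that the intervals assume. This checks the computation only and cannot show whether the intervals hold where UMIs gather in single cells.

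All 9 members were named in every class. Pathway genes were named when past 1.5-fold with an interval that leaves out 1, at most 4 per direction and list, and for each member with at least 500 UMIs the 3 genes most like it were taken by Pearson's r of log2(CPM + 10) over 7 classes and 3 libraries. The members, marker lists and pathway lists were chosen with earlier results of these data known. Coordinates come from GENCODE M21 and promoters from RefSeq (GRCm38.p6), and all 9 members matched both. Alternatives covered the cell limits, depth, other markers, class assignment, mixed cells, free RNA, weighting, normalisation, resolution, the count filter and the fold. Leaving out cells with UMIs of 2 or more markers of another class kept 511 of 1287 endothelial, 280 of 604 Müller and 140 of 402 pericyte cells. It kept 0 of 112 smooth muscle cells, 488 of 723 rods, 9 of 244 cones and 300 of 575 bipolar cells. Thinning left out cells under 2000 UMIs.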

Additional observations from a re-analysis of the deposited data

Results flagged for a closer look

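Cell classes too small or too mixed for the age comparisons gave 6 member levels above the young library, used here as the control. Only higher levels were picked out, and levels below the young library were not listed. No share over all genes was taken under the same rule. The count of 6 therefore has no background and does not show that members rose more often than they fell. In the mixed endothelial-erythroid class the old over young ratio of Vegfc was 3.16 (1.58 to 6.76), from 31 against 12 UMIs, of which 15 old ones came from 1 cell. In the amacrine class Kdr had an old over young ratio of 4.23 (1.77 to 12.3), from 37 against 6 UMIs. One of the 15 old amacrine cells held 15 of these, 40 of the 41 Flt1 UMIs and 78 of the 80 endothelial marker UMIs, and the other 14 held 22 Kdr UMIs in 10 cells (182 CPM). Flt1 in the same class gave 0 UMIs in the young library, and its old level was 9.37-fold the level of 3 young counts (at least 7.29-fold with counting error), but without that 1 cell only 1 old UMI remained (8.29 CPM). In the mixed class of T, NK and microglial markers, the adult over young ratio was 6.23 (1.01 to 257) for Kdr, from 22 against 1 UMIs, and 4.31 (2.51 to 8.02) for Flt1, from 213 against 14, of which 94 came from 1 cell. Nrp1 there gave 20 against 0 UMIs, 1.89-fold the level of 3 young counts (at least 1.40-fold with counting error). Of 401 endothelial marker UMIs in the 28 adult cells of this class, 383 lay in the 6 cells with Flt1, and their part in these values was not tested.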

How the results depend on the processing

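No paired analysis was possible because each age has 1 library, and no replicate could be left out. Over all alternatives, 271 values stayed within their limit, 51 moved beyond it and 1 was reversed. The limit was the counting interval for an age ratio and 1.5 times for a count. For a Müller over endothelial level it was the standard deviation of the 3 library ratios. Of 28 age ratios, 16 fell on the other side of 1 under at least 1 alternative (31 of 256 values), and arterial-like Flt1 was the 1 of these whose own interval had left out 1. Calls past 1.5-fold were lost for endothelial Vegfc with mixed cells counted as endothelial (1.49), for venous-like Nrp2 thinned (1.34), for bipolar Flt1 thinned (0.913) or with cells weighted equally (0.736), and for arterial-like Kdr thinned (0.734), without cells holding other classes' markers (0.734) or without the cell with most UMIs (0.710, chosen after seeing the data). Müller Vegfa in old over young was 1.28 with stricter cell limits, 1.57 thinned, 1.95 without cells holding other classes' markers, 1.29 with classes from each cell's own markers, 1.44 with cells weighted equally, and, chosen after seeing the data, 0.856 without the smaller cluster and 1.26 with free RNA set by rod markers. Without cells holding other classes' markers, old over young became 2.02 for endothelial Vegfb, 2.63 for Vegfc, 1.03 for Kdr and 0.972 for Flt1, 0.865 for Müller Kdr, 0.459 for bipolar Nrp2, 2.19, 1.70 and, reversed, 1.18 for arterial-like Vegfc, Nrp1 and Flt1, and 1.32 for venous-like Kdr, and the Müller over endothelial level 0.177 for Flt1 and 0.104 for Nrp1. With cells weighted equally, endothelial Vegfc was 2.31, arterial-like Vegfc 1.56, arterial-like Nrp1 1.08 and the Müller over endothelial level of Flt1 0.180. Thinned, old over young was 0.599 for smooth muscle Pgf, 0.920 for Müller Kdr, 0.902 for endothelial and 0.852 for arterial-like Flt1, and 0.954 for venous-like Kdr. Stricter limits gave 0.919 for Müller and 0.129 for bipolar Flt1. Own-marker classes gave 1.85 for bipolar Flt1, a Müller over endothelial level of 1.73 for Kdr and 0.181 for Flt1, and 0 members at least 4-fold higher in endothelial cells in place of 3, and stricter limits, thinning and mixed cells counted as endothelial each gave 2 (Vegfc and Flt1). Mixed cells counted as endothelial gave 0.954 for endothelial Flt1 and levels of 1.78 for Kdr and 0.190 for Flt1. Subtracted free RNA gave 0.146 for bipolar Flt1. Of the alternatives chosen after seeing the data, endothelial Kdr was 1.04 and Flt1 0.954 without arterial-like cells, Flt1 0.906 in arterial-like and venous-like cells alone, and Müller Kdr 1.22 with free RNA set by rod markers. Genes past 1.5-fold were 719 in endothelial cells and 629 in Müller glia, 373 and 194 with at least 100 UMIs, 3138 (22.8%) and 3711 (26.2%) with 1 UMI in each library and 163 and 118 at 2-fold. Members past it were then 3 (Vegfa, Vegfc and Pgf) in endothelial cells, 2 (Pgf and Nrp1) in Müller glia and 1 (Flt1) in smooth muscle (42.2% of genes) with 1 UMI in each library, and 0 in endothelial cells at 2-fold. Beyond what an alternative's own construction shows, the cause was not tested. Cone Vegfa and smooth muscle Vegfb and Pgf gave no value without cells holding other markers, nor Müller Flt1 with free RNA set by rod markers.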

Other observations

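The genes whose levels followed each member most closely over 21 points (7 classes in 3 libraries, so that points share libraries and their depth) were taken by Pearson's r, as a description with no test. For Vegfa they were Trim9 (r = 0.976), Paqr9 (0.965) and Csf2ra (0.964), and for Vegfb Ndufa13 (0.929), Adssl1 (0.906) and Eif1ax (0.875). Vegfc was followed by Gimap5 (0.990), Gm4070 (0.989) and Slc26a10 (0.985). For the receptors they were Cyp2d22 (0.976), Prex1 (0.963) and Smox (0.956) for Kdr, Ucp2 (0.969), Plk2 (0.967) and Rai14 (0.966) for Flt1, and the integrin gene Itga6 (0.964), Elovl7 (0.961) and Lmo2 (0.960) for Flt4. Nrp1 was followed by Plat (0.988), which encodes tissue plasminogen activator, Dock6 (0.985) and the ETS factor gene Ets1 (0.979), and Nrp2 by Cbfa2t3 (0.937), Spock2 (0.927) and Med15 (0.925). Pgf had fewer than 500 UMIs and was not compared.

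A cluster named as retinal pigment epithelium, which is not part of the neural retina, was nearly absent from the young and adult libraries (1 and 7 cells). It gave 53 cells in the old one, where Vegfa stood at 121 CPM from 31 UMIs at a median depth of 3283 UMIs. The name rested on 3 of 7 fixed markers, and the platelet gene Pf4 was among the leading genes beside Ttr and Rpe65.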
